A study of Mus musculus with 4 samples.

Results

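The genes described here are the platelet-derived growth factor (PDGF) system, with 2 receptors (Pdgfra, Pdgfrb) and 4 ligands (Pdgfa, Pdgfb, Pdgfc, Pdgfd), and 4 genes used as markers of pericytes, the cells that wrap small blood vessels (Cspg4, Mcam, Kcnj8, Abcc9). They were chosen by symbol, read from the amplicon name, and all 10 were found among 23930 amplicons. In the mutant cells Cspg4 was 7.25-fold higher and passed the test across all genes. Mcam stood next, with a 4.78-fold higher mean, but its controls lay far apart and it did not pass. The receptors and the ligands Pdgfa, Pdgfc and Pdgfd were well expressed in every library and none passed. The ligand gene Pdgfb and the channel gene Kcnj8 stayed below 1 RPM (a read number scaled to the library) in every library, as did the channel gene Abcc9 except for 6.23 RPM in control 1. Kcnj8 and Abcc9 had fewer reads in both mutants than in both controls.

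PDGF ligands are secreted dimers that act on a pair of receptor tyrosine kinases. The A and C ligands act mainly through the alpha receptor, the B and D ligands through the beta receptor, and the B ligand can engage both. In connective tissue the alpha receptor marks fibroblasts and mesenchymal progenitors. The beta receptor marks pericytes and vascular smooth muscle but is also common on cultured stromal cells, while endothelial cells are the classical source of the B ligand that draws pericytes to vessels. Pericyte identity is therefore usually read from several markers together.

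The mutant group (genotype Gnas-/-) was infected with Ad-Cre, an adenovirus that carries Cre recombinase. The control group, labelled wild type, was infected with Ad-GFP, which carries green fluorescent protein. All cells were primary subcutaneous progenitors of C57BL/6 mice whose Gnas alleles are flanked by loxP sites, and all spent 7 days in osteogenic medium. The Gnas product is the G protein alpha subunit that stimulates adenylyl cyclase. Cre acted on the cultured cells, so no promoter restricted it to a cell type. The sources used here give neither the share of cells infected nor the age of the mice. They also do not say whether replicate libraries are separate cultures or animals, and the spread behind each p-value may thus be technical.

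RNA was read with an amplicon panel, 1 short target per gene, in 2 mutant and 2 control libraries of 13483518 to 18455811 reads. Values are RPM, read numbers brought to the same total in each library. Amplicons differ in how well they amplify, so levels are compared here between libraries and not between genes. No row was named Gnas, so the genotype labels were not checked by the targeted gene. The mutant libraries resembled each other (Pearson's r 0.981 across 11638 tested genes, which are not independent replicates) more than the control libraries did (0.916). Control 2 stood apart by macrophage transcripts, with 822 RPM of Lyz2, against 10.4 to 33.9 RPM in the other 3 libraries. Xist stood at 395 and 419 RPM in the mutants and at 165 and 0 RPM in the controls. Ddx3y, on the Y chromosome, had 26.9 and 12.5 RPM in mutant libraries, against 61.4 and 124 RPM in control libraries. The part of these differences in the results was not tested. Virus, donor mix and loss of Gnas cannot be told apart in this design. A bulk library also cannot tell fewer cells of a type from less RNA per cell.

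Of the 10 genes, 7 reached the filter of 1 RPM in 2 libraries and were tested, and Pdgfb, Kcnj8 and Abcc9 did not. Each was tested with limma on the log2(RPM + 1) scale (two-sided), and p-values were adjusted by Benjamini-Hochberg over all 11638 tested genes, with 0.05 as the threshold. By this rule 1 of the 7 (Cspg4) was higher and 0 were lower in the mutants, where 1.73% of all tested genes were called higher, 0.576% lower and 2.30% in either direction. At an unadjusted limma p under 0.05 there were 3 of the 7 members (Cspg4, Mcam, Pdgfd), all higher, beside 2080 of all 11638 tested genes. On the whole reads recovered from the RPM values, edgeR called 0 members and DESeq2 called 2 (Cspg4 and Mcam). For a single gene, an exact permutation of 2 against 2 libraries cannot give a two-sided p below 0.333. In 5 of the 7 both mutants lay above both controls, which held for 30.6% of all tested genes. In none of the 7 did both mutants lie below both controls, which held for 21.1%. Kcnj8 and Abcc9, which did lie below both controls in both mutants, were under the filter and are not in this count.

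**Figure D1:**
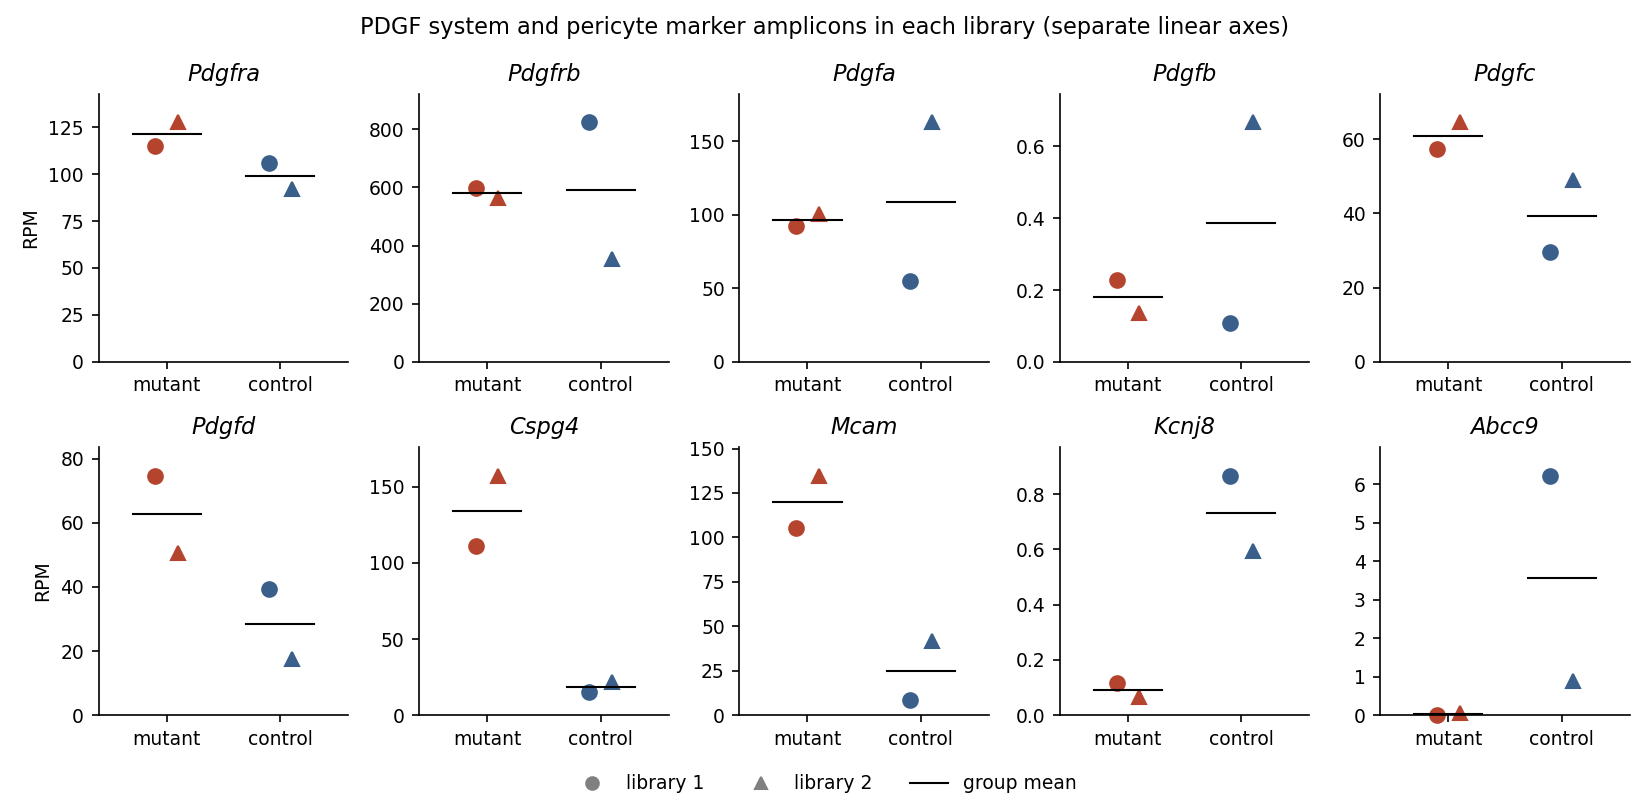
RPM of the 10 genes in each library, with mutant left of control, a circle for library 1, a triangle for library 2 and a line at the group mean (n = 2), each panel with its own linear axis from 0. Cspg4 and Mcam lie higher in both mutants, Pdgfrb and Pdgfa of the mutants lie between the controls, and Kcnj8 and Abcc9 lie near 0 in both mutants.

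Cspg4 encodes the proteoglycan NG2, a surface protein of pericytes and of other immature mesenchymal and glial cells. It stood at 111 RPM in mutant 1 and 157 RPM in mutant 2, against 15.1 RPM in control 1 and 22.0 RPM in control 2. The groups did not overlap, and the lowest mutant lay far above the highest control, while libraries within a group differed by 0.50 (mutants) and 0.51 (controls) on the log2 scale. The means were 134 ± 32.6 RPM in mutants and 18.5 ± 4.87 RPM in controls (SD, n = 2 each). Its log2 fold change was 2.80 (SE 0.30, 95% interval 2.03 to 3.56, limma adjusted p = 0.0252), a difference that 1.67% of tested genes exceeded in size. With 1941 and 2336 reads in the mutants and 278 and 296 in the controls, counting error is small beside this difference. Its log2 fold change stayed between 2.54 and 3.05 over 14 alternatives, with adjusted p from 6.48e-10 to 0.564, and 11 of the 14 made the call. It was 2.54 without control 1 and 3.05 without control 2. The call was lost with edgeR (adjusted p = 0.0515), without mutant 1 (0.483) and without mutant 2 (0.564).

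Mcam encodes CD146, an adhesion molecule of the immunoglobulin family found on pericytes, endothelial cells and skeletal stem cells. Its mutant libraries held 105 and 135 RPM, against 8.45 RPM in control 1 and 41.8 RPM in control 2. The groups did not overlap, but the controls differed from each other by 2.18 on the log2 scale, against 0.35 between the mutants. The means were 120 ± 20.9 RPM in mutants and 25.1 ± 23.5 RPM in controls, a log2 fold change of 2.58 (SE 0.71, 95% interval 0.77 to 4.39), and limma gave adjusted p = 0.164. Which control was used decided the size. The log2 fold change was 3.67 without control 2 and 1.49 without control 1. A fit with 1 control left takes its spread from the mutants alone, so it cannot weigh the spread between controls. With all 4 libraries, Mcam passed with DESeq2 (adjusted p = 0.0346) and with the replicate number as a block (limma adjusted p = 0.0437). It did not pass with edgeR (adjusted p = 0.265). Control 2, the control with more Mcam, also held more endothelial marker RNA than control 1. The summed endothelial list stood at 76.1 and 88.4 RPM in mutants 1 and 2, against 20.1 RPM in control 1 and 105 RPM in control 2. Flt1 alone gave 51.3 and 41.3 RPM of the mutant sums, against 7.86 and 9.86 RPM of the control sums. The part of endothelial RNA in the Mcam values was not tested.

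Among the tested members, Cspg4 and Mcam had the largest fold changes. Both lie on the plus strand of chromosome 9 (Cspg4 at 56865033 to 56899870, Mcam at 44134469 to 44142727, GENCODE M21 annotation of GRCm38, positions of the genes and not of the amplicons). Their promoters are shown because of these fold changes, although Mcam did not pass. Gnas acts through cyclic AMP, so the cyclic AMP element was looked for by its letters, and its part in the values was not tested. Each sequence is the 250 bases before the RefSeq start (GRCm38.p6, plus strand). Capitals mark the cyclic AMP response element TGACGTCA in Mcam, and the GC box GGGCGG, on either strand, in both.
Mcam, chr9:44134408-44134657: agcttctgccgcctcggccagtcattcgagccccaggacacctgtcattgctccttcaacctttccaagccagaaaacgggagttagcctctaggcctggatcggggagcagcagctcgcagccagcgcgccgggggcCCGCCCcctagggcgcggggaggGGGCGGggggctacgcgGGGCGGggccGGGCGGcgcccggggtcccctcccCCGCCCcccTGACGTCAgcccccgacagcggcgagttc
Cspg4, chr9:56864854-56865103: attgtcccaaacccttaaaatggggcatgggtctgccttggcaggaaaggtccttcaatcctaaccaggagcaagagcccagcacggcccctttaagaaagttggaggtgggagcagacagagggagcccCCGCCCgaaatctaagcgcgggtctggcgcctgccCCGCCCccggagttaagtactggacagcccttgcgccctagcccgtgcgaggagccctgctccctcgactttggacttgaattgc

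RefSeq promoter windows matched 8 of the 10 members (9 windows, since Pdgfa has 2), and not Pdgfb or Pdgfrb. The full element TGACGTCA occurred in the Mcam window alone among these 9, from 29 to 22 bases before the start, and in 1.55% of 32851 promoter windows of all genes. Its core TGACG, which 17.8% of all windows hold on either strand, was also found in Pdgfra, in Kcnj8 and in 1 Pdgfa window, and the 2 cores in Mcam are part of its full element. The GC box matched 5 times in Mcam, 2 times in Cspg4, 1 and 2 times in the Pdgfa windows, and 1 time in Abcc9. It is present in 32.7% of all windows. The letters GACCACCCA of the Gli consensus were in none of the 9 windows and in 0.225% of all windows, and the TATA box TATAAA matched Pdgfd alone (12.4% of all windows). GENCODE places the start of Mcam 189 bases and that of Cspg4 71 bases upstream of the RefSeq start used here. A match describes letters in these windows and not binding.

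The alpha receptor gene Pdgfra, which marks fibroblast-like progenitors, had the smallest spread within groups of the 7 tested members, taking the wider group of each. It held 115 and 128 RPM in the mutants, against 106 and 92.1 RPM in the controls. The groups did not overlap but lay close together. Its log2 fold change was 0.29 (SE 0.21, 95% interval -0.23 to 0.81, limma adjusted p = 0.518), and it stayed between 0.19 and 0.39 over 14 alternatives, none of which called it. Pdgfra lies on chromosome 5 at 75152292 to 75198215 (plus strand).

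The beta receptor gene Pdgfrb was read deeply, with 4784 to 15203 reads per library. It held 598 and 564 RPM in the mutants, against 824 RPM in control 1 and 355 RPM in control 2. Both mutants lay between the controls, which differed by 1.21 on the log2 scale. The log2 fold change was 0.10 (SE 0.43, 95% interval -0.99 to 1.20, limma adjusted p = 0.926). It took its sign from the control used: 0.71 without control 1 and -0.50 without control 2. With edgeR and DESeq2 the log2 fold change was also below 0, down to -0.08. The ratio of Pdgfrb to Pdgfra RPM was 5.21 and 4.42 in the mutants, against 7.79 and 3.85 in the controls, so it too fell between the controls.

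Pdgfa, the gene of the A ligand, showed the same arrangement with the controls in the opposite order. Its mutants held 92.7 and 101 RPM, against 55.2 RPM in control 1 and 163 RPM in control 2. The log2 fold change was 0.03 (SE 0.52, 95% interval -1.29 to 1.34, limma adjusted p = 0.987), while the ratio of mean RPM, mutant over control, was 0.887. Without control 2 the log2 fold change was 0.80 and without control 1 it was -0.75, so neither direction can be given. TMM and median-of-ratios scaling also turned its sign.

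The ligand genes Pdgfc and Pdgfd encode growth factors secreted in a latent form that proteases must cut. Pdgfc held 57.3 and 64.6 RPM in the mutants, against 29.6 RPM in control 1 and 49.0 RPM in control 2. Pdgfd held 74.7 and 50.5 RPM in the mutants, against 39.2 RPM in control 1 and 17.5 RPM in control 2. Neither gene's groups overlapped, and in both the gap between the groups was smaller than the gap between the controls. The log2 fold change was 0.66 for Pdgfc (SE 0.31, 95% interval -0.12 to 1.44, limma adjusted p = 0.344) and 1.20 for Pdgfd (SE 0.44, 95% interval 0.07 to 2.32, limma adjusted p = 0.257). Without control 2 Pdgfc came to 1.02, and without control 1 to 0.31. Without control 1 Pdgfd came to 1.76, and without control 2 to 0.63.

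**Figure D2:**
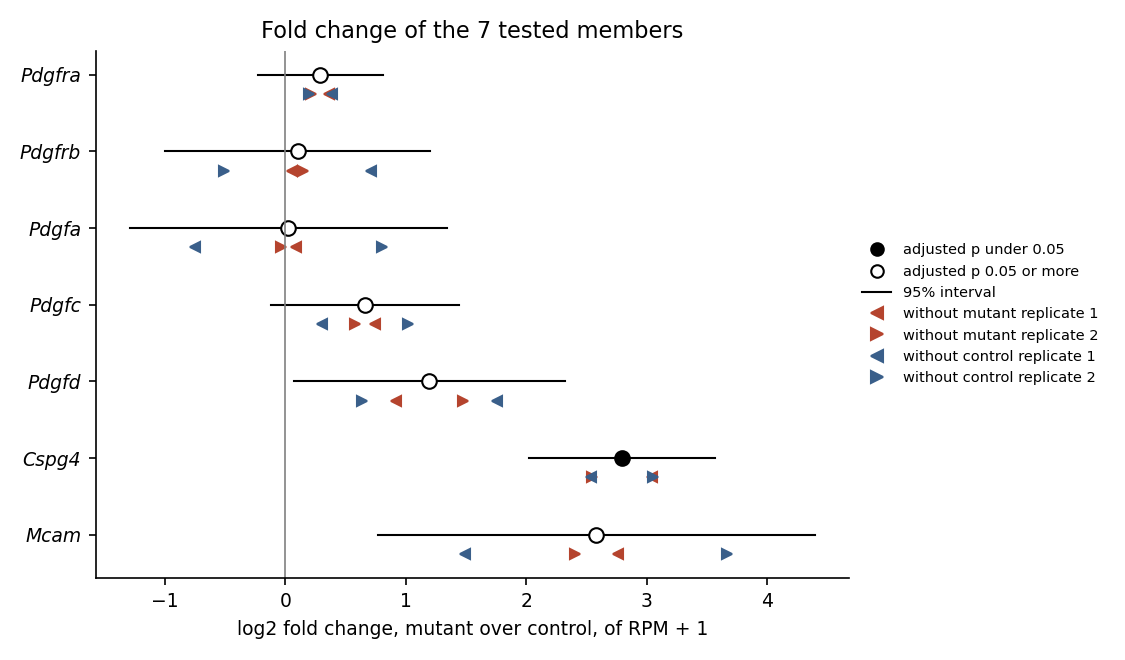
Log2 fold change of RPM + 1, mutant over control, for the 7 tested members, with the 95% interval from limma as a line, a filled circle where adjusted p was under 0.05, and triangles below it for the value with 1 library left out. Cspg4 at 2.80 is the filled circle, and the values of Pdgfrb and Pdgfa lie on both sides of 0 according to the control left out.

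**Figure D3:**
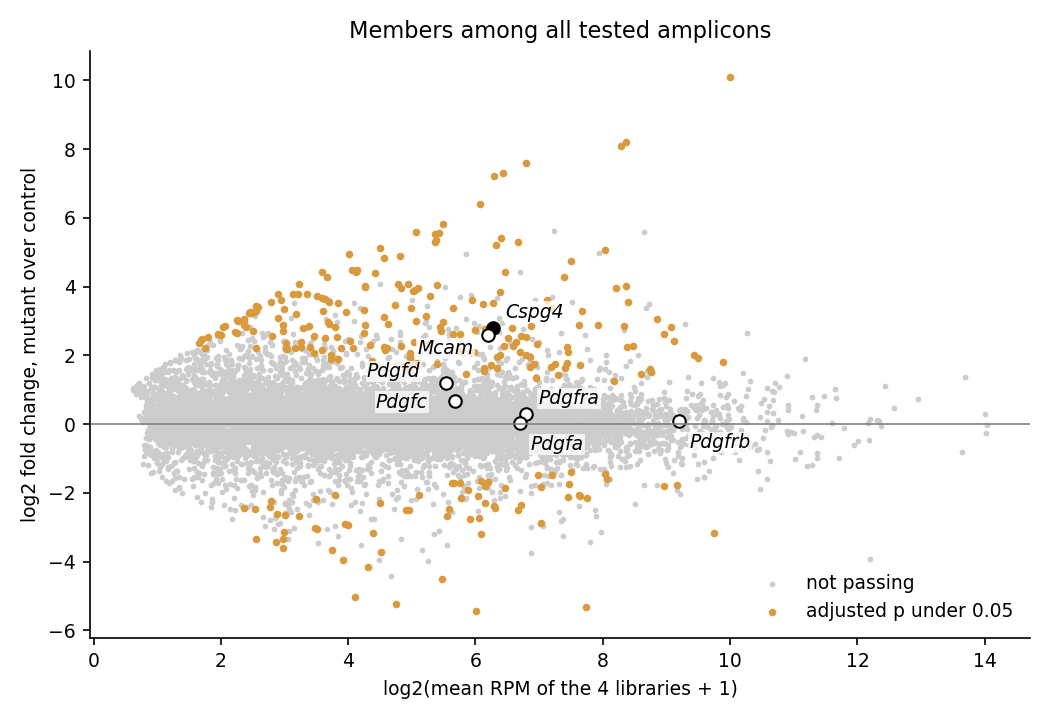
Log2 fold change against mean level, log2(mean RPM + 1), for all 11638 tested amplicons, with the 7 tested members named and amplicons at adjusted p under 0.05 in orange. Cspg4 and Mcam lie at similar levels and folds, and Cspg4 alone of the 7 passes.

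Pdgfb, the B ligand gene of endothelial cells, was hardly detected. It held 4 and 2 reads in the mutants (0.229 and 0.135 RPM), against 2 reads in control 1 and 9 in control 2 (0.108 and 0.667 RPM). A count of 0 would allow 3 reads, or 0.163 to 0.222 RPM, so 3 of the 4 values stand near that floor. Over pooled reads the ratio, mutant over control, was 0.539 (exact 95% counting interval 0.164 to 1.59), and a difference was not detectable at this depth. The highest value came in control 2, the library with the most macrophage and endothelial marker RNA. The macrophage list summed to 30.2 and 17.0 RPM in mutants 1 and 2, against 51.4 RPM in control 1 and 1049 RPM in control 2. Their part in the Pdgfb and Pdgfa values was not tested.

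Kcnj8 and Abcc9 encode the pore and the sulfonylurea receptor of the ATP-sensitive potassium channel of vascular mural cells, and are among the more specific markers of pericytes. They are neighbours on the minus strand of chromosome 6, with 16247 bases between Kcnj8 (142564837 to 142571614) and Abcc9 (142587862 to 142702315). Kcnj8 had 2 and 1 reads in the mutants (0.115 and 0.067 RPM), against 16 and 8 reads in the controls (0.867 and 0.593 RPM). Abcc9 had 0 and 1 reads in the mutants (0 and 0.067 RPM), against 115 reads in control 1 and 12 in control 2 (6.23 and 0.890 RPM). Both genes were lower in both mutants than in both controls, at levels under 1 RPM except for Abcc9 in control 1.

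With pooled reads the ratio, mutant over control, was 0.124 for Kcnj8 (exact 95% counting interval 0.0238 to 0.407) and 0.00778 for Abcc9 (0.000196 to 0.0442). These intervals cover counting error only, and most of the Abcc9 reads came from control 1. With no filter on low values limma gave adjusted p = 0.172 for Kcnj8 and 0.328 for Abcc9, so neither passed. The paralogous channel genes Kcnj11 and Abcc8 had at most 0.054 RPM in any library, and Abcc8 was at 0 in all 4.

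The other genes of PDGF signalling were read from lists by role, and most did not pass. The share of all tested genes called was 1.73% higher and 0.576% lower. Of 118 listed genes tested, markers included, 9 were called higher and 2 lower. All but Nrp1 of these lost the call with edgeR, and none was called when a mutant library was left out. Over all tested genes the median log2 fold change was 0.08. Of 10 genes for ligand processing and co-receptors 2 rose, 0 fell and 8 did not pass (median -0.01). Pdgfrl, which encodes a secreted protein resembling the extracellular part of a PDGF receptor, held 141 and 110 RPM in the mutants, against 15.6 and 6.38 RPM in the controls. Its log2 fold change was 3.51 (SE 0.44, limma adjusted p = 0.0333). Nrp1, a co-receptor that also binds PDGF ligands, held 300 and 268 RPM in the mutants, against 67.0 and 51.4 RPM in the controls (log2 fold change 2.25, SE 0.23, limma adjusted p = 0.0229). For both genes the mutants lay several-fold above either control.

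Proteases that cut the ligands did not pass in limma or edgeR, while DESeq2 called Plat and Plau lower. Plat, the tissue plasminogen activator that cuts the C ligand, held 77.1 and 64.7 RPM in the mutants, against 162 and 256 RPM in the controls (log2 fold change -1.52, SE 0.29, limma adjusted p = 0.0770, DESeq2 adjusted p = 0.000422, range over 14 alternatives 0.000422 to 0.706). Plau, the urokinase that cuts the D ligand, held 44.8 and 53.1 RPM in the mutants, against 78.9 and 258 RPM in the controls (-1.53, limma adjusted p = 0.256, DESeq2 adjusted p = 0.0196, range over 14 alternatives 0.000661 to 0.869). Both lay lower in both mutants, with the larger gap to control 2. The proprotein convertase gene Furin, whose product cuts the A and B ligands, had an adjusted p of 0.393.

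Of 23 signal transducers of the receptors 2 rose, 0 fell and 21 did not pass (median 0.09). Gab1, a docking protein, held 30.4 and 32.1 RPM in the mutants, against 8.24 and 7.86 RPM in the controls (log2 fold change 1.83, SE 0.26, limma adjusted p = 0.0419). Grb10, an imprinted adaptor gene, held 415 and 402 RPM in the mutants, against 176 and 163 RPM in the controls (1.26, SE 0.20, adjusted p = 0.0498). Grb10 stood at the edge of the threshold: 9 of its 14 alternatives lost the call. Pik3r1, the regulatory subunit of phosphoinositide 3-kinase, held 599 and 410 RPM in the mutants, against 172 and 137 RPM in the controls, and did not pass in limma (1.68, adjusted p = 0.0570). It passed with DESeq2 (2.1e-05) and with the replicate number as a block (0.0276), over a range of adjusted p up to 0.588 in 14 alternatives. Nck2 and Stat5b had adjusted p of 0.167 and 0.198. Of 12 tested phosphatases, ubiquitin ligases and feedback inhibitors none passed in limma, edgeR or DESeq2, and 0 had an unadjusted p under 0.05 (median 0.00). The nearest were Ptprj, Spry2 and Ptpn12, at adjusted p of 0.343, 0.422 and 0.455.

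Of 15 tested immediate early genes, which PDGF induces in fibroblasts along with many other stimuli, 0 rose, 1 fell and 14 did not pass (median -0.70). The transcription factor gene Myc held 24.8 and 20.9 RPM in the mutants, against 82.0 and 71.4 RPM in the controls (log2 fold change -1.71, SE 0.23, limma adjusted p = 0.0386). The chemokine gene Ccl7 (-1.63, adjusted p = 0.0971), the AP-1 gene Fosl1 (-2.56, adjusted p = 0.132) and the hyaluronan synthase gene Has2 (-1.21, adjusted p = 0.280) did not pass in limma. DESeq2 called 4 genes of this list lower, among them Ccl7 (adjusted p = 0.00143, range over 14 alternatives up to 0.675) and Fosl1 (9.34e-05, range up to 0.760), and Fosl1 also passed with the replicate block (0.0475). With edgeR none passed. In Fosl1 and Has2 control 2 was more than 2-fold above control 1 (137 against 35.8 RPM, and 62.0 against 25.3 RPM). The same held for every other tested gene of the list except Junb, Myc, Ccl7, Klf6 and Srf. Egr1, for example, held 143 RPM in control 1 and 294 RPM in control 2, and Ccl2 held 62.1 and 223 RPM. The part of control 2 in the list median was not tested.

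Other receptors of the same class and their ligands did not pass in limma or edgeR (5 tested, median -0.30, with 1 at an unadjusted p under 0.05), and DESeq2 called 1 higher, Kitl. Kitl, the ligand of Kit, held 52.9 and 31.9 RPM in the mutants, against 6.18 and 12.3 RPM in the controls (log2 fold change 2.11, limma adjusted p = 0.0930). Il34 and Csf1r followed at adjusted p of 0.363 and 0.631. Kit itself, the neighbour of Pdgfra on chromosome 5, did not exceed 0.445 RPM in any library, and Flt3 was at 0.

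**Figure D4:**
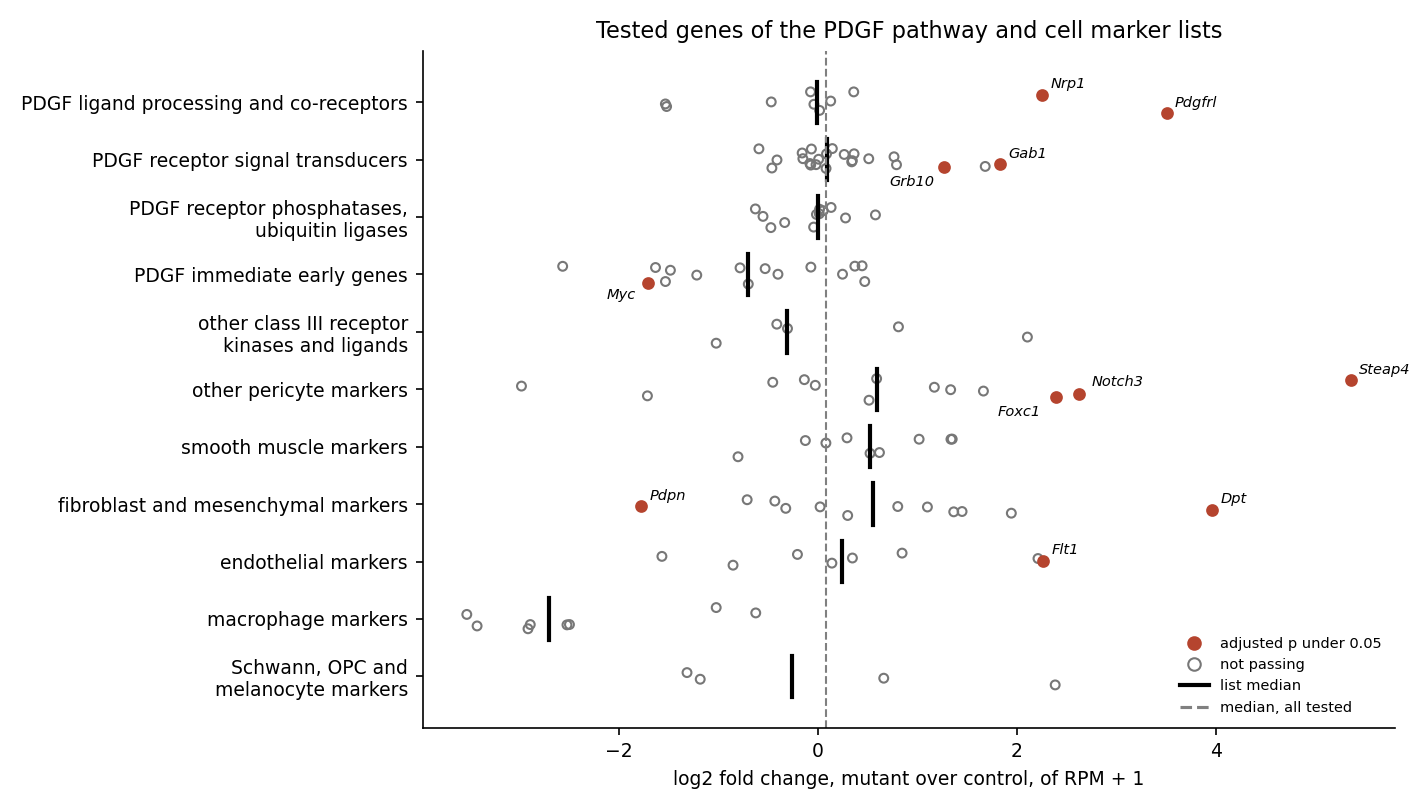
Log2 fold change of RPM + 1, mutant over control, of each tested gene in the PDGF pathway and cell marker lists, filled where adjusted p was under 0.05, with the list median as a bar and the median of all tested amplicons (0.08) dashed. Named points include Steap4, Notch3 and Foxc1 among pericyte markers, and Myc and Pdpn on the lower side.

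Of the other pericyte markers some rose, some were near 0 in every library, and some were high in control 2 alone. Of 13 tested markers (18 with a row) 3 rose, 0 fell and 10 did not pass (median 0.59), while edgeR called none and DESeq2 called 5 higher and 1 lower. Among all 18, both mutants lay above both controls in 11. Notch3, the Notch receptor of mural cells, held 80.2 and 104 RPM in the mutants, against 17.8 and 10.9 RPM in the controls (log2 fold change 2.63, SE 0.32, limma adjusted p = 0.0325). Foxc1, a forkhead factor of mural and other mesenchymal cells, held 42.1 and 66.7 RPM in the mutants, against 8.62 and 10.0 RPM in the controls (2.39, SE 0.32, adjusted p = 0.0384). Steap4, a metalloreductase gene, held 78.7 and 81.8 RPM in the mutants, against 0.217 and 2.23 RPM in the controls (5.36, SE 0.52, adjusted p = 0.0224). These genes are also expressed by other mesenchymal cells.

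Rgs5, the marker most often used for pericytes, held 0.974 and 0.876 RPM in the mutants, against 0 and 0.297 RPM in the controls. Higd1b was at 0 in all 4 libraries. Ndufa4l2 held 6.70 and 9.77 RPM in the mutants, against 9.16 RPM in control 1 and 504 RPM in control 2 (limma adjusted p = 0.446). Cox4i2, below the filter, held 0.172 and 0.337 RPM in the mutants, against 0 RPM in control 1 and 26.2 RPM in control 2. Both of these markers set control 2 apart from the other 3 libraries. Gucy1a3 and Foxd1 stayed below 5 RPM in every library and did not pass in limma (adjusted p of 0.149 and 0.151). DESeq2 called both higher (adjusted p of 0.0224 and 0.0165), but they reached the filter through the mutants alone. Gucy1a3 held 2.18 and 4.98 RPM in the mutants, against 0.379 and 0.371 RPM in the controls. Foxd1 held 1.26 and 1.82 RPM in the mutants, against 0 RPM in both controls. Anpep held 52.6 and 54.8 RPM in the mutants, against 362 and 87.1 RPM in the controls (log2 fold change -1.71, adjusted p = 0.274). Summed over the list, pericyte markers came to 1886 and 1520 RPM in the mutants, against 1455 and 1544 RPM in the controls. Postn, a matrix gene widely expressed by fibroblasts, held 1578 and 1149 RPM in the mutants, against 1032 and 859 RPM in the controls, most of those sums.

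Markers of other cell types give the setting for these values. Fibroblast and mesenchymal genes were abundant, summing to 35633 and 39769 RPM in the mutants, against 17563 and 25844 RPM in the controls. Of 12 tested, 1 rose, 1 fell and 10 did not pass in limma (median 0.55). Lum, Col1a2 and Thy1 were nearest (limma adjusted p of 0.0948, 0.226 and 0.278). DESeq2 called 3 higher and 1 lower, with Lum (DESeq2 adjusted p = 0.00882) and Col1a2 (0.000617) among those higher. Dpt, a dermal matrix protein gene, rose (666 and 430 RPM in mutants, against 19.0 and 58.1 RPM in controls, limma adjusted p = 0.0389), and Pdpn, the podoplanin gene, fell (271 and 243 RPM in mutants, against 803 and 964 RPM in controls, limma adjusted p = 0.0347). Smooth muscle genes summed to 4310 and 6476 RPM in the mutants, against 1951 and 6880 RPM in the controls. None of 9 passed in limma, edgeR or DESeq2 (median 0.53), with 2 at an unadjusted p under 0.05 (Synpo2 and Myocd, adjusted p of 0.243 and 0.247). Acta2, the smooth muscle actin gene that pericytes and myofibroblasts also express, held 3103 and 4969 RPM in the mutants, against 1009 and 3720 RPM in the controls (adjusted p = 0.502).

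Of 8 tested endothelial markers 1 rose, 0 fell and 7 did not pass (median 0.25). The gene that rose was Flt1, a receptor of vascular endothelial growth factor (51.3 and 41.3 RPM in mutants, against 7.86 and 9.86 RPM in controls, log2 fold change 2.26, SE 0.28, limma adjusted p = 0.0333). Erg, Tek and Egfl7 had adjusted p of 0.145, 0.388 and 0.464. Levels of other endothelial genes were mixed. Tie1 was at 0 everywhere, and Pecam1 held 1.83 and 1.48 RPM in the mutants, against 1.41 and 24.5 RPM in the controls. Cdh5 held 5.90 and 12.1 RPM in the mutants, against 1.25 and 23.7 RPM in the controls. Emcn held 3.72 and 8.35 RPM in the mutants, against 0.813 and 31.3 RPM in the controls. Erg held 5.155 and 8.957 RPM in the mutants, against 0.054 and 1.706 RPM in the controls. In Pecam1, Cdh5 and Emcn the highest value was in control 2. None of 8 tested macrophage markers passed in limma or edgeR (2 at an unadjusted p under 0.05, median -2.70). Of these, Ctss, Tyrobp, Fcer1g and Laptm5 held at most 0.115 RPM in the mutants and reached the filter through the controls alone. The filter thus fixed their sign in the median. Ctss, Tyrobp and Cd68 had limma adjusted p of 0.225, 0.276 and 0.281. DESeq2 called 5 lower, among them Ctss, Tyrobp and Cd68 (DESeq2 adjusted p of 0.000272, 4.7e-05 and 0.0015). In control 1 these held 1.52, 1.36 and 6.12 RPM, and in control 2 they held 13.1, 24.9 and 57.7 RPM. None of 4 tested markers of Schwann cells, oligodendrocyte precursors and melanocytes, which can also express Cspg4, Mcam or Pdgfra, passed in limma or edgeR (1 at an unadjusted p under 0.05, median -0.26), and DESeq2 called 1 higher. Of these, S100b held 12.9 and 14.9 RPM in the mutants, against 1.08 and 2.89 RPM in the controls (limma adjusted p = 0.0660). The melanocyte gene Mlana held 2.29 and 2.83 RPM in the mutants, against 62.6 RPM in control 1 and 0.222 RPM in control 2 (adjusted p = 0.751), and it made up most of the 68.4 RPM that this list summed to in control 1. Ngfr and Pmel had adjusted p of 0.351 and 0.406, Sox10 stayed at or below 0.297 RPM, and Tyr was at 0.

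**Figure D5:**
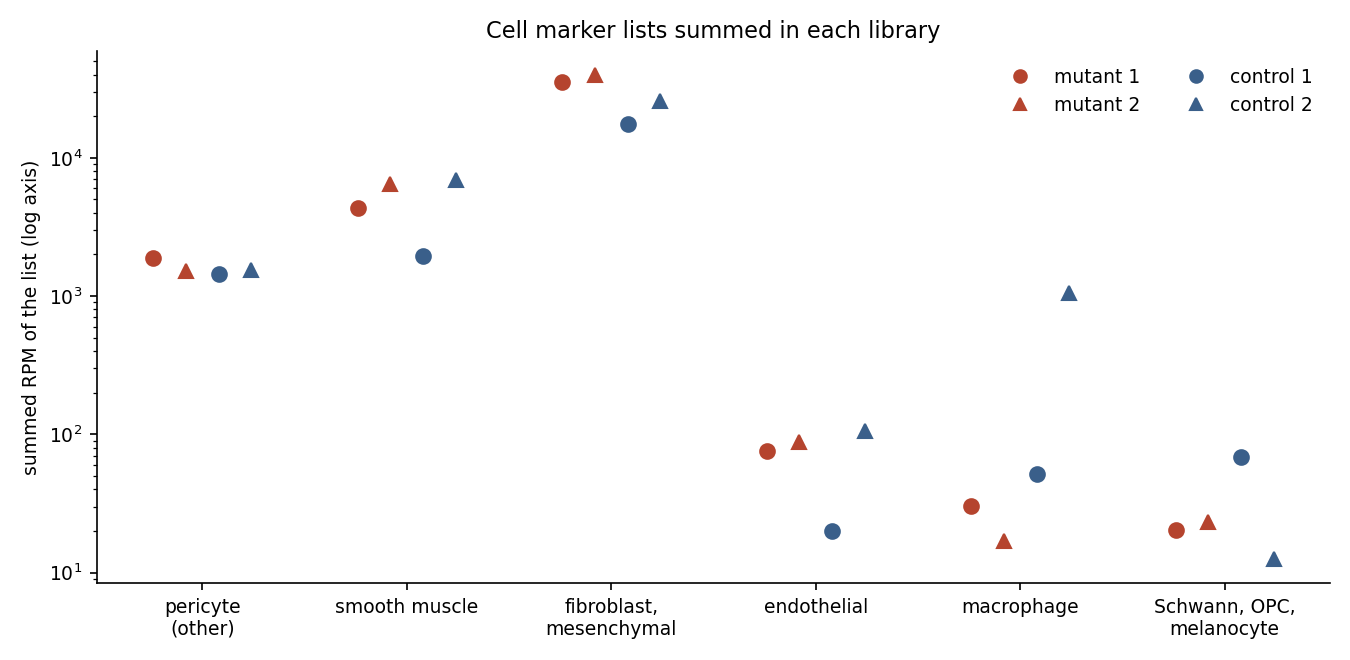
Summed RPM of each cell marker list in the 4 libraries on a log axis, with mutants in red left of controls in blue. Control 2 reaches 1049 RPM of macrophage markers, against 17.0 to 51.4 RPM in the other libraries. The pericyte list spans 1455 to 1886 RPM over all 4, and Postn makes up most of each of these sums.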

How the data were processed

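The values are RPM, scaled by the authors to each library's total, from Ion AmpliSeq panel libraries, per the labels' protocols. The sources used here name no aligner, counter, build or filter. Symbols were taken from amplicon names (27 gene entries differed from them). Low RPM values are whole multiples of the value of 1 read, and 100% of non-zero values came out as whole reads within 0.0006 RPM, giving 17460018 and 14847959 reads in mutants 1 and 2 and 18455811 and 13483518 in controls 1 and 2. The labels describe no molecular identifiers, so reads cannot be taken as independent molecules, and intervals and floors cover counting error only.

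The 11638 amplicons that reached 1 RPM in 2 or more libraries entered the test with limma 3.58.1 in R 4.3.3 (lmFit, eBayes with a trend) on log2(RPM + 1), mutant over control, which understates the change of low genes. The test was checked on simulated reads. Alternatives were pseudocounts of 0.5 and 5, no filter or 5 RPM, TMM and median-of-ratios scaling, a replicate block, a fit without trend, leaving out each library, and edgeR 4.0.16 (66 higher, 27 lower) and DESeq2 1.42.0 (598 higher, 493 lower) on the recovered reads. Figures and motif searches used Python 3.11.15. The members and the 12 lists were chosen with earlier results of these data known. Beside all members, the text names each list's genes past the threshold, up to 3 others with the smallest p, and cell markers at 0. Other genes (Lyz2, Xist, Ddx3y, Kit, Rgs5, Postn, Acta2, Pecam1, Cdh5, Emcn, Sox10, Mlana, Ndufa4l2, Cox4i2, Kcnj11, Egr1, Ccl2, Junb, Klf6, Srf) were chosen after their values were seen. Of the listed genes, 6 had no row: Acp1, Spry1, Tagln, Pi16, S100a4 and Prrx1 were not analysed here.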

Additional observations from a re-analysis of the deposited data

How the results depend on the processing

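Over all genes, 201 were higher and 67 lower in the mutants. The counts were 56 and 18 with no filter, 66 and 27 with edgeR, 598 and 493 with DESeq2, and 301 and 123 with the replicate number as a block. Leaving out 1 library gave 0 to 1609 higher and 0 to 802 lower, with 0 whenever a mutant was left out. A fit with 1 library in a group assumes that it varies like the other group, so the closely matched mutants give many calls and the spread controls none. Of the members, 1 was higher and 0 were lower. The count of higher members was 0 with edgeR, 2 with DESeq2, 2 with the block, and 0 to 4 with 1 library left out (0 to 1 lower). Of the listed genes, 9 were higher and 2 lower, against 2 and 0 with no filter, 1 and 0 with edgeR, 16 and 13 with DESeq2, 0 lower with no trend, and 0 to 28 higher and 0 to 29 lower with 1 library left out. Pdgfa stood at -0.75 without control 1 and at 0.80 without control 2. The cause of the other changes was not tested. Nothing in the labels says that a replicate number marks a shared mouse or day, and same-numbered libraries' deviations correlated at 0.164 with only 2 pairs, so the block result is given here as a count, and Mcam is the member it added. TMM and median-of-ratios scaling moved the median of all genes by less than 0.1 on the log2 scale. Depth limits Pdgfb, Kcnj8 and Abcc9, whose pooled reads per group were 1 to 24 except for the 127 of Abcc9 in the controls.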
